A study of Rattus norvegicus with 21 samples.

Results

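Astrocytes can be purified from the rat forebrain by immunopanning, in which antibodies on a dish hold the cells that carry a chosen surface protein, here the integrin subunit ITGB5. The older MD method of McCarthy and de Vellis instead grows a mixed cell suspension from newborn forebrain in serum until flat, dividing astrocytes dominate. Serum carries growth factors and plasma proteins that the healthy brain is shielded from, and it is known to change the form and division of cultured astrocytes. Fibroblasts of the meninges, the membranes around the brain, make fibrillar collagens and small proteoglycans and grow well in serum, so both methods have to deal with them.

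Both preparations were compared here after growth in the same 10% foetal calf serum. The 3 serum P7 cultures held cells panned from forebrain of Sprague Dawley rats at postnatal day 7 (P7), grown for 7 days in MD medium with 10% serum. The 3 MD cultures were prepared from P1 forebrain and were harvested after 7 days in vitro. These 6 arrays were chosen by their titles from the 21 arrays of the series, which fall into 7 groups of 3 biological replicates. The other groups were withdrawn P7 cultures (7 days in serum, then 7 days in HBEGF medium without it), HBEGF P7 and HBEGF P1 cultures (panned cells grown for 7 days without serum, with 5 ng/ml HBEGF in the medium), and fresh P7 and fresh P1 cells (panned and lysed at once). For the HBEGF P7 cultures 1 label gives p1 as the start day, against the P7 of their titles and source names, and the titles were followed. No group carried a transgene or a mutation. The comparison asks what differs between the preparations when serum is shared. Preparation and start day change together in it, and their parts cannot be told apart.

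Each value is the log2 of a deposited intensity on an Affymetrix rat expression array, so a difference of 1 is a 2-fold difference of intensity, and levels of different genes are not on 1 scale. The 14217 genes were each represented by 1 probe set. A gene was called higher or lower when limma gave a Benjamini-Hochberg adjusted p under 0.05 over all 31042 probe sets and the log2 change, serum P7 minus MD, was at least 1 in size. Every p below is such an adjusted p, and SE is the moderated standard error of the change. An exact permutation test of 3 against 3 arrays cannot give a p under 0.1, and 3 arrays a group limit the precision.

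Spearman correlations over all probe sets ran from 0.974 to 0.994 among the serum P7 arrays, from 0.978 to 0.991 among the MD arrays, and from 0.927 to 0.964 across the 2 groups. Serum P7 replicate 3 stood apart from the other serum P7 arrays: it was the highest of them in 648 of the 1077 genes called higher and the lowest in 597 of the 906 genes called lower. Over all 14217 genes it was the highest of the 3 in 5488 and the lowest in 5878. MD replicate 1 was the highest MD array in 531 of the 906 lower genes and in 6313 of all genes. Several results that rest on either array are given with and without it. There were 983 higher and 809 lower genes without serum P7 replicate 3, and 970 and 805 without MD replicate 1.

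Serum P7 and MD cultures differed at 1983 genes (13.9% of those tested), with 1077 called higher (7.58%) and 906 called lower (6.37%) in serum P7 cultures. Among the higher genes, 356 changed by at least 4-fold and 57 by at least 16-fold, while 130 of the lower genes reached 4-fold and 8 reached 16-fold. The 3 arrays of each group did not overlap at 6975 genes (49.1%), with serum P7 above MD at 3010 (21.2%) and below it at 3965 (27.9%). The counts of gene lists below stand against these shares of 7.58% and 6.37%, and a share near them is no result about the list.

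**Figure D1:**
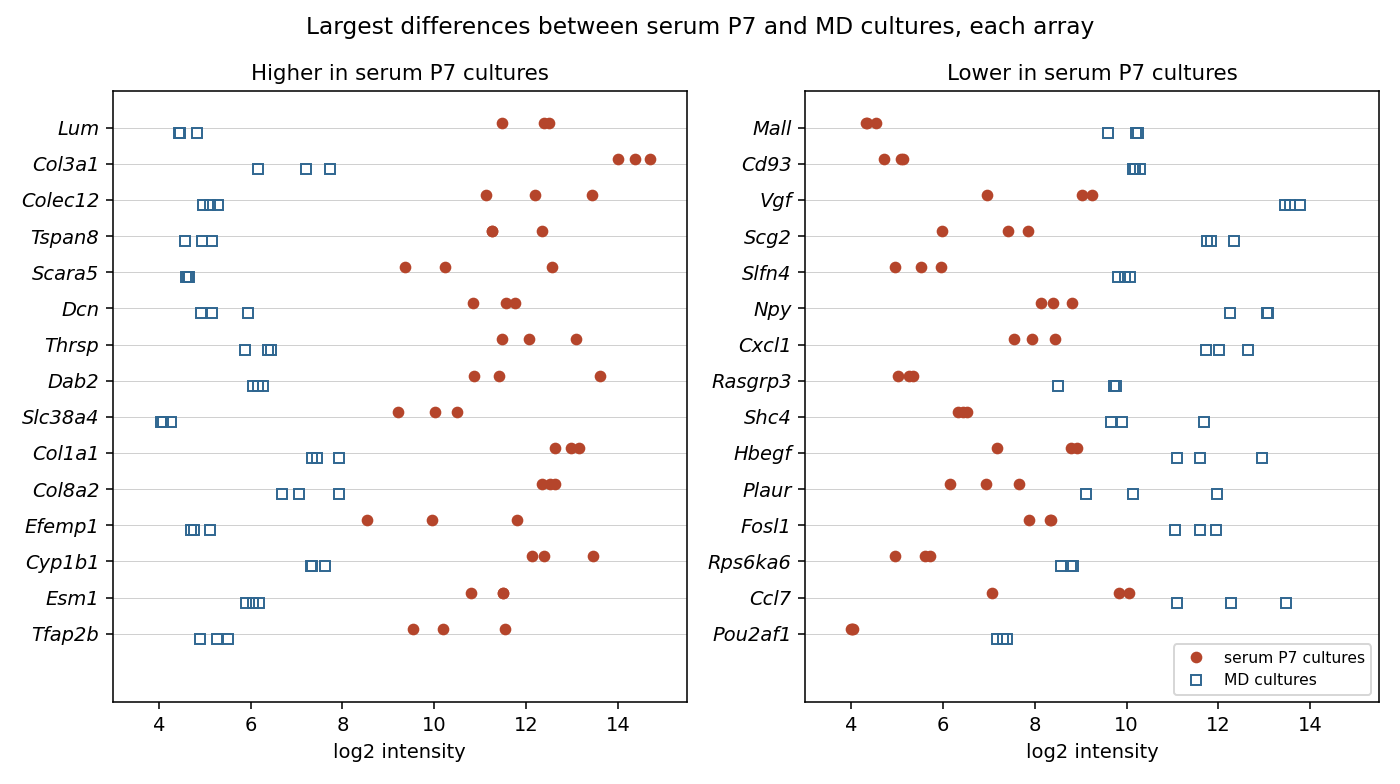
The log2 intensity (horizontal axes) of the 15 genes with the largest rise (left) and the 15 with the largest fall (right) among called genes whose groups did not overlap. Filled circles are the 3 serum P7 arrays and open squares the 3 MD arrays. Lum lies between 11.47 and 12.49 in serum P7 cultures and between 4.44 and 4.84 in MD cultures.

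The largest rise was that of Lum, which codes for lumican, a small proteoglycan that binds collagen fibrils. Its log2 intensity was 11.47, 12.40 and 12.49 in the serum P7 cultures, against 4.84, 4.44 and 4.47 in the MD cultures, a change of 7.54 (SE 0.49, adjusted p = 3.19e-08) or 186-fold. All 3 serum P7 arrays lay far above all 3 MD arrays. Col3a1, the chain of the fibrillar collagen III, stood at 14.01, 14.37 and 14.69 in serum P7 cultures, against 7.72, 6.16 and 7.21 in MD cultures (change 7.33, SE 0.53, adjusted p = 9.9e-08). Dcn, decorin, a relative of lumican, was at 10.84, 11.76 and 11.56 in serum P7 cultures, against 5.95, 5.16 and 4.91 in MD cultures (change 6.04, SE 0.86, adjusted p = 6.58e-05). The groups were separate for both genes as for Lum, which was a condition for being among the 15 largest rises. Col1a1, a chain of collagen I, was at 12.64, 13.15 and 12.98 in serum P7 cultures, against 7.93, 7.45 and 7.34 in MD cultures (change 5.35, SE 0.40, adjusted p = 1.59e-07).

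These belong to a list of fibroblast and meningeal genes of which 23 were measured. In serum P7 cultures 16 of the 23 were called higher and none lower, against 7.58% and 6.37% of all genes. Their median change was 3.02, against -0.065 over all genes. Ogn, the proteoglycan osteoglycin, was 29.6-fold higher, Ccn3, a matricellular protein, changed by 4.65, and Mgp, matrix Gla protein, by 4.04. The transcription factors Foxc1 (2.45), Alx1 (3.53) and Twist1 (1.73), known from mesenchyme and the meninges, were also called higher. Of the 7 that were not called, Foxc2 had the only negative change (-0.28) and Ptgds, the prostaglandin D synthase of the leptomeninges, the largest positive one (4.42, adjusted p = 0.0564). In whole cultures, more cells of a type and more RNA per cell cannot be told apart.

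The level of this list was uneven within the serum P7 group. Its mean log2 intensity was 10.06, 10.51 and 11.44 in serum P7 replicates 1, 2 and 3, against 7.69, 7.37 and 7.33 in the MD cultures. Every serum P7 array lay above every MD array, and replicate 3 was the highest. Ptgds showed the widest spread, at 6.26, 8.96 and 14.25 in serum P7 cultures, against 5.83, 5.12 and 5.26 in MD cultures. Igf2, a fetal growth factor that the meninges also express, was at 9.15, 9.54 and 13.69 in serum P7 cultures, against 6.77, 7.08 and 6.40 in MD cultures (change 4.04, SE 1.10, adjusted p = 0.0111). Without serum P7 replicate 3 the change of Igf2 was 2.59 and its call was lost (adjusted p = 0.07), while 15 of the 23 listed genes were still called higher.

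The other groups give the scale of these levels. Lum averaged 12.12 ± 0.57 in serum P7 cultures and 4.58 ± 0.23 in MD cultures (SD, n = 3 each), while the other 5 groups ran from 8.55 in fresh P1 cells to 11.57 in withdrawn P7 cultures. Col3a1 averaged 14.36 in serum P7 cultures and 7.03 in MD cultures, with 10.21 in fresh P1 cells and 11.09 in fresh P7 cells. The fresh P1 arrays, from animals of the age used for MD cultures, lay between 7.81 and 9.37 for Lum, above all MD arrays, a difference that was not tested here. The list mean was 7.52 to 8.57 in fresh P1 cells, 8.09 to 9.02 in fresh P7 cells, 8.29 to 8.58 in HBEGF P1 cultures and 8.10 to 10.08 in HBEGF P7 cultures. The withdrawn P7 cultures, at 11.08 to 11.56, overlapped with the serum P7 cultures.

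**Figure D2:**
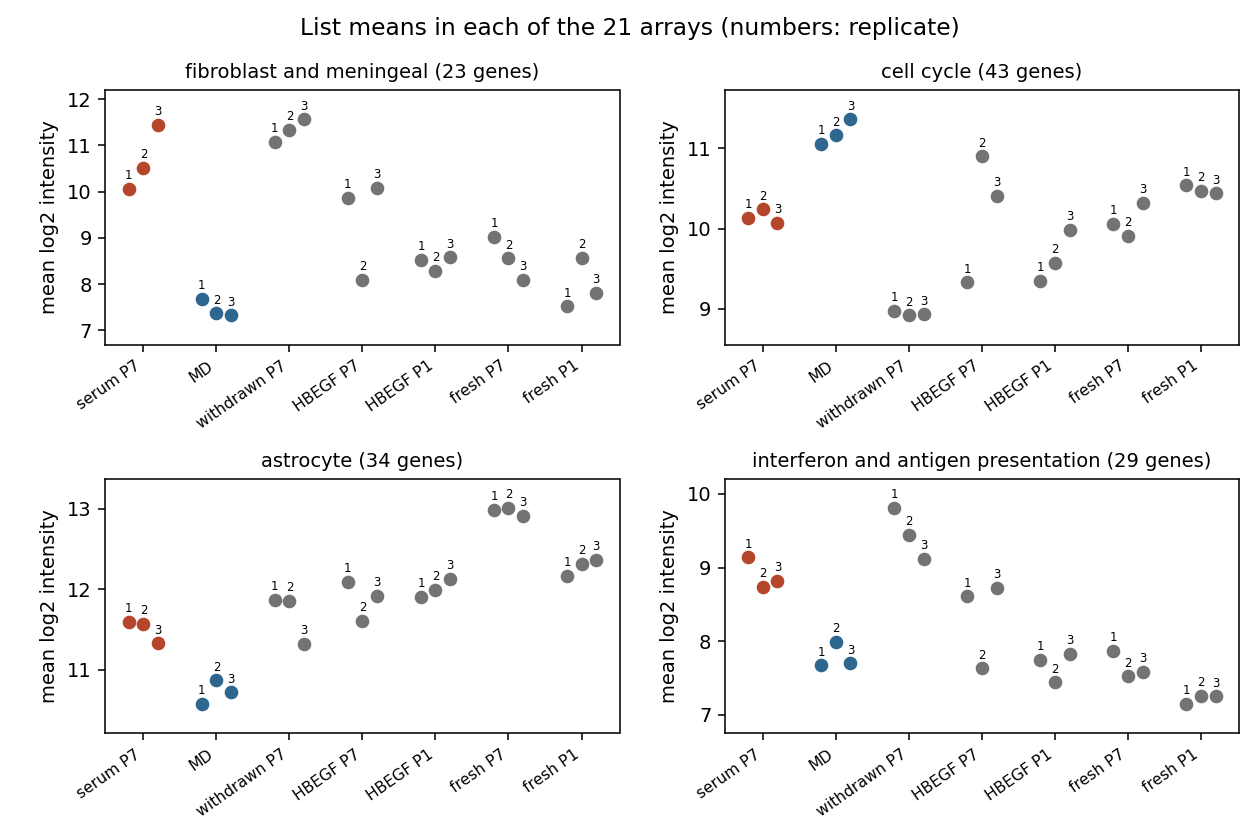
Mean log2 intensity (vertical axes) of 4 gene lists in each of the 21 arrays, with the groups along the horizontal axes and the replicate number above each point. For the fibroblast and meningeal list the serum P7 arrays lie between 10.06 and 11.44 and the MD arrays between 7.33 and 7.69, while for the cell cycle list the serum P7 arrays lie between 10.07 and 10.24 and the MD arrays between 11.06 and 11.36.

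The other genes among the 15 largest rises lay outside this list. Colec12, a collectin that acts as a scavenger receptor, was at 11.12, 12.19 and 13.44 in serum P7 cultures, against 5.29, 5.12 and 4.96 in MD cultures (change 7.13, SE 0.77, adjusted p = 5.1e-06). Scara5, a receptor that takes up ferritin, was at 9.37, 10.23 and 12.56 in serum P7 cultures, against 4.65, 4.60 and 4.64 in MD cultures (change 6.09, SE 0.80). Its MD values lay close together while its serum P7 values were spread, with replicate 3 highest. Slc38a4, a sodium-coupled amino acid transporter, was at 9.21, 10.01 and 10.49 in serum P7 cultures, against 4.04, 4.27 and 4.08 in MD cultures (change 5.78, SE 0.37), and its means in the other 5 groups ran from 4.50 to 7.38. Tspan8, a tetraspanin, changed by 6.73, Thrsp, a regulator of lipid synthesis, by 5.97, Dab2, an endocytic adaptor, by 5.81, and Tfap2b, an AP-2 transcription factor, by 5.21. Col8a2 (5.27), Efemp1 (5.24), Cyp1b1 (5.24) and Esm1 (5.22) completed the 15 largest rises.

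Extracellular matrix genes outside the fibroblast list moved less uniformly. Of 39 measured, 17 (43.6%) were called higher and 3 (7.69%) lower in serum P7 cultures, with a median change of 0.97. Panned cells also differed by start day, with a median change of 0.72 in HBEGF P7 minus HBEGF P1 cultures. In fresh P7 minus fresh P1 cells it was 0.34. Col8a1, a short-chain collagen, was at 12.13, 12.52 and 11.57 in serum P7 cultures, against 7.78, 7.35 and 7.50 in MD cultures (change 4.53, SE 0.44, adjusted p = 1.79e-06). Components of the basement membrane, the sheet that underlies vessels and the brain surface, were among the higher genes: Lama2 changed by 3.89, Lamb1 by 3.46, Lama4 by 3.23 and Col4a2 by 2.96. The 3 lower genes were Tnc (-2.22), which codes for the glycoprotein tenascin C, Ncan (-1.65), a proteoglycan of the brain matrix, and Lama5 (-1.09). Without serum P7 replicate 3 none of the 3 was called lower, and 14 members were called higher. Of 21 matrix proteases and inhibitors, 6 (28.6%) were called higher and 3 (14.3%) lower. Mmp2, a gelatinase, changed by 2.93 (SE 0.35), while Plaur, the urokinase receptor, was at 6.93, 7.66 and 6.16 in serum P7 cultures, against 11.97, 9.12 and 10.13 in MD cultures (change -3.49, SE 0.64, adjusted p = 0.000638).

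Of 34 measured astrocyte genes, 11 (32.4%) were called higher in serum P7 cultures, 1 (2.94%) was called lower and 22 were not called, with a median change of 0.67, and the list mean was 11.60, 11.57 and 11.33 in serum P7 cultures, against 10.58, 10.87 and 10.72 in MD cultures. Aldh1l1, a folate enzyme used as a general astrocyte marker, was at 11.80, 11.17 and 11.36 in serum P7 cultures, against 8.43, 8.84 and 8.67 in MD cultures (change 2.79, SE 0.25, adjusted p = 7.37e-07). Gpr37l1, an orphan receptor enriched in astrocytes, was at 12.12, 12.11 and 11.19 in serum P7 cultures, against 8.56, 9.06 and 8.31 in MD cultures (change 3.16, SE 0.34). Both genes separated the groups. Acsl6 changed by 2.39, Tril by 2.06 and Glul, glutamine synthetase, by 1.67. The 1 gene called lower was Apoe, the main lipid carrier of the brain, at 13.11, 13.30 and 13.63 in serum P7 cultures, against 14.53, 14.33 and 14.29 in MD cultures (change -1.04, SE 0.12). No astrocyte gene was called lower with quantile normalization or without MD replicate 1. The number called higher was 8 without MD replicate 1 and 14 without serum P7 replicate 3.

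Among the classical markers, the water channel gene Aqp4 was higher in serum P7 cultures, at 14.15, 14.20 and 13.99, against 12.87, 12.72 and 12.38 in MD cultures (change 1.45, SE 0.24, adjusted p = 0.000275). Gfap, the glial filament protein, was at 14.76, 14.68 and 14.62 in serum P7 cultures, against 12.74, 13.94 and 13.60 in MD cultures (change 1.26, SE 0.28, adjusted p = 0.00312). The change of Gfap was 0.92 without MD replicate 1, which was its lowest array, and was then under the fold limit. The glutamate transporters Slc1a2 (0.64) and Slc1a3 (0.49), the gap junction gene Gja1 (0.69), S100b (0.03), the filament gene Vim (0.12) and Egfr (0.44) were not called. Itgb5, the gene of the panning antigen, was not called either (0.60, adjusted p = 0.195). Its serum P7 values were 11.49, 11.49 and 10.25, against 10.12, 10.52 and 10.79 in MD cultures, and without serum P7 replicate 3 its change of 1.01 passed the call. Nes, a filament of progenitors and reactive astrocytes, was lower in serum P7 cultures, at 11.05, 10.97 and 10.26, against 12.89, 12.56 and 12.29 in MD cultures (change -1.82, SE 0.37, adjusted p = 0.00146).

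Of 23 genes for glutamate, GABA and ion transport, 9 (39.1%) were called higher and 1 (4.35%) lower. With 1 serum P7 or MD array left out, between 6 and 8 were called higher. When the 6 arrays compared were fitted alone, 6 were called higher and none lower. Grm3, a metabotropic glutamate receptor of astrocytes, was at 7.24, 7.20 and 7.44 in serum P7 cultures, against 5.78, 5.64 and 4.74 in MD cultures (change 1.90, SE 0.33). Its mean was 13.38 in fresh P7 cells, far above both cultures. Of 26 reactive astrocyte genes, 2 (7.69%) were called higher, near the share of all genes, and 5 (19.2%) lower. B3gnt5, a glycolipid enzyme, changed by -3.14, Clcf1, a cytokine of the CNTF family, by -2.91, Timp1, a protease inhibitor, by -1.61 and Cd44, the hyaluronan receptor, by -1.56, while Cp, ceruloplasmin, changed by 2.34. Of 24 progenitor and Notch genes, 2 (8.33%) were called higher, near the share of all genes, and 4 (16.7%) lower, among them Nrarp, a Notch feedback gene (-2.29), and Hmga2, a chromatin protein of fetal progenitors (-1.78).

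**Figure D3:**
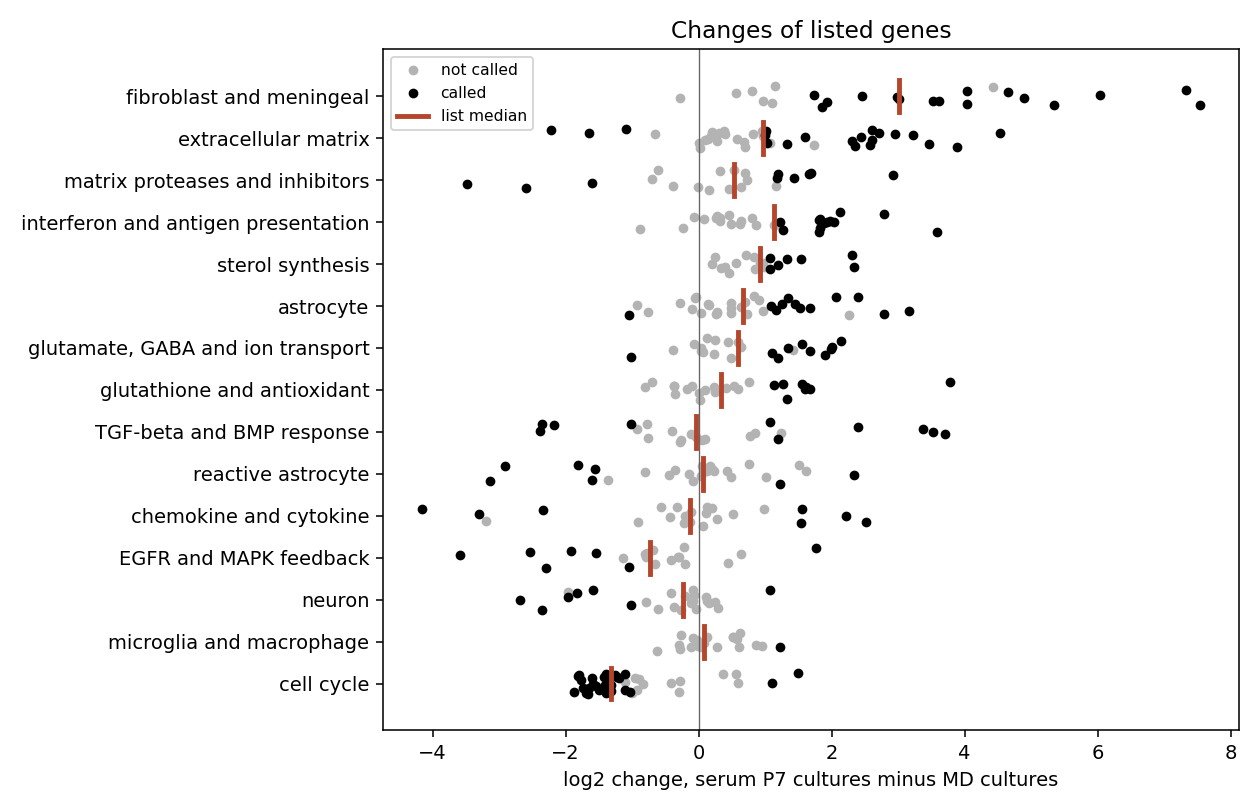
Log2 change (serum P7 cultures minus MD cultures, horizontal axis) of each measured gene of 15 lists. Black points were called, grey points were not, and the red bar is the list's median, which is 3.02 for the fibroblast and meningeal list and -1.31 for the cell cycle list.

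Most of the measured cell cycle genes were called lower in serum P7 cultures. Of 43 measured, 29 (67.4%) were called lower, 2 higher and 12 neither, with a median change of -1.31, and 6.37% of all genes were called lower. The list mean was 10.13, 10.24 and 10.07 in serum P7 cultures, against 11.06, 11.16 and 11.36 in MD cultures, so the groups were separate. Mcm5, a subunit of the replication helicase, was at 9.39, 9.35 and 9.15 in serum P7 cultures, against 11.25, 11.09 and 11.15 in MD cultures (change -1.87, SE 0.30, adjusted p = 0.000224). Ube2c, which drives exit from mitosis, was at 11.33, 11.51 and 11.30 in serum P7 cultures, against 13.30, 12.74 and 13.43 in MD cultures (change -1.77, SE 0.31). Gins1 (-1.81), Birc5 (-1.80), Aurka (-1.74), Plk1 (-1.59) and Mki67 (-1.39) were called lower too, and serve replication, mitosis or, for Mki67, as a label of dividing cells. The 2 higher members, Cdkn2a (1.49) and Cdkn2b (1.10), code for inhibitors of the cycle, and between 0 and 2 members were called higher with 1 array left out. MD cultures had the highest list mean of the 7 groups, with 10.44 to 10.54 in fresh P1 cells and 8.92 to 8.97 in withdrawn P7 cultures.

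The promoters of many cell cycle genes carry a CHR element and CCAAT boxes, which are bound by complexes that repress or activate them through the cycle. The letters TTTGAA (CHR) and CCAAT were searched on both strands from 250 bases before to 50 bases after the start in RefSeq promoters of build GRCr8. The motifs share no stretch with each other in the promoters printed here. Of the 29 genes called lower, 24 had a promoter in the table, 10 held the CHR letters, 18 held CCAAT and 9 (37.5%) held both. Of 11 other measured members with a promoter, 1 held both, against 7.25% of all 27457 promoters. The promoters of the 2 called genes with the largest fall among those that hold both are shown because these genes fell together, with the motifs in capitals. A match is only a match of letters.
Birc5 promoter (chr10:103571896-103572195, plus strand, GRCr8): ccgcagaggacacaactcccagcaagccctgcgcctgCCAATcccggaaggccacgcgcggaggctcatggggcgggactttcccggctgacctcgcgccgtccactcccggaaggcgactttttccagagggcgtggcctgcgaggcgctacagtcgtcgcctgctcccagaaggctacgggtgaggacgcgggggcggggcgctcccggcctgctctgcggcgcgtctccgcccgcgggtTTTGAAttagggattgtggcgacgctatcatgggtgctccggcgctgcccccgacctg
Plk1 promoter (chr1:186147408-186147707, plus strand, GRCr8): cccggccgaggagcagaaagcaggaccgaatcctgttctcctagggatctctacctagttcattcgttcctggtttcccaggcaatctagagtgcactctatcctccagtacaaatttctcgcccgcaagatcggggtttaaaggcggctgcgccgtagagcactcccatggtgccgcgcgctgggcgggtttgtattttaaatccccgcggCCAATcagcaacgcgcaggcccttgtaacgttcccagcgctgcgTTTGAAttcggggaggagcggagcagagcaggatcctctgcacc

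Of 20 measured genes of the EGFR and MAPK list, which holds ligands and targets of epidermal growth factor signalling, 6 (30%) were called lower in serum P7 cultures, 1 (5%) was called higher and 13 were not called, with a median change of -0.73. Hbegf, the ligand that was added as protein to the HBEGF groups, was at 8.93, 8.78 and 7.17 in serum P7 cultures, against 12.94, 11.10 and 11.61 in MD cultures (change -3.59, SE 0.55, adjusted p = 0.000137). Its means in the other 5 groups ran from 7.82 to 8.46, so the MD cultures were the group with the high level. Areg, a related ligand, changed by -2.54, and Phlda1 (-2.30) and Dusp5 (-1.92), genes known to respond to MAPK activity, were also called lower. Spry1, an inhibitor of receptor signalling, was the 1 higher gene (1.76). Fosl1, a transcription factor of the AP-1 family and a target of the same pathway, was at 8.34, 8.35 and 7.88 in serum P7 cultures, against 11.94, 11.05 and 11.59 in MD cultures (change -3.34, SE 0.36, adjusted p = 5.07e-06). It was the only called gene of 21 immediate-early genes.

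Several of the genes with the largest falls were high in the MD cultures alone of the 7 groups. Mall, a relative of the myelin and lymphocyte protein MAL that sits in membrane rafts, was at 4.54, 4.32 and 4.35 in serum P7 cultures, against 10.21, 9.59 and 10.25 in MD cultures (change -5.61, SE 0.20, adjusted p = 2.31e-11), a 49.0-fold lower level. Its means in the other 5 groups ran from 4.22 to 4.96. Cd93, a receptor known from endothelial and myeloid cells, was at 5.08, 5.12 and 4.72 in serum P7 cultures, against 10.14, 10.19 and 10.30 in MD cultures (change -5.24, SE 0.34, adjusted p = 3.61e-08). Slfn4 (-4.48), Rasgrp3 (-4.13), an activator of Ras and Rap proteins, and Pou2af1 (-3.29), a coactivator known from B cells, had the same pattern, with the MD mean the highest of the 7 groups. Shc4, a signalling adaptor, changed by -3.99, and Rps6ka6, a kinase of the RSK family, by -3.30, though for Rps6ka6 the fresh cells, at 9.26 for P7 and 9.90 for P1, had the highest means.

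A group of secretory granule and neuropeptide genes was among them. Vgf, a neurosecretory protein, was at 9.24, 9.03 and 6.95 in serum P7 cultures, against 13.55, 13.77 and 13.46 in MD cultures (change -5.19, SE 0.56, adjusted p = 4.69e-06). Scg2, secretogranin II, was at 7.85, 7.42 and 5.98 in serum P7 cultures, against 11.83, 12.33 and 11.75 in MD cultures (change -4.89, SE 0.59). Serum P7 replicate 3 was the lowest array for both. Npy, neuropeptide Y, was at 8.40, 8.14 and 8.81 in serum P7 cultures, against 13.09, 13.05 and 12.25 in MD cultures (change -4.35, SE 0.74, adjusted p = 0.000326). Neuronal markers, counted separately, were called lower at 6 of 24 genes (25%) and higher at 1. Gap43, a growth cone protein also found in immature glia, was the largest of these falls (-2.69), while 9 of the 24, among them Syt1, Nefl, Gad1 and Slc17a7, lay below 7.06, the median of all values of the 6 arrays, in every array. The neuronal list mean was 6.44, 6.43 and 6.87 in serum P7 cultures, against 7.32, 7.19 and 7.02 in MD cultures. Their part in the falls of Vgf, Scg2 and Npy was not tested.

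Chemokine and cytokine genes went in both directions. Of 25 chemokine and cytokine genes, 4 (16%) were called higher and 3 (12%) lower. Cxcl1, which attracts neutrophils, was at 8.43, 7.94 and 7.54 in serum P7 cultures, against 12.64, 12.02 and 11.74 in MD cultures (change -4.16, SE 0.59, adjusted p = 6.3e-05). Its means were 11.25 and 11.04 in fresh P7 and fresh P1 cells. Ccl7, which attracts monocytes, was at 10.06, 9.83 and 7.06 in serum P7 cultures, against 13.47, 11.10 and 12.27 in MD cultures (change -3.30, SE 0.96, adjusted p = 0.0165). Its call was lost without serum P7 replicate 3 (change -2.34, adjusted p = 0.101) and without MD replicate 1 (change -2.70, adjusted p = 0.0836). Tnfaip3, an inhibitor of NF-kappaB, changed by -2.34. Il33, a nuclear cytokine of glia, was higher by 2.51 (SE 0.53). The chemokine gene Ccl20 was higher by 2.21, but its call was lost when the 6 arrays compared were fitted alone (adjusted p = 0.105).

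Of 29 measured genes for interferon response and antigen presentation, 13 (44.8%) were called higher in serum P7 cultures, 16 were not called and none was called lower, with a median change of 1.14. The list mean was 9.14, 8.74 and 8.82 in serum P7 cultures, against 7.67, 7.99 and 7.70 in MD cultures. Ifit2, an antiviral RNA-binding protein, was at 8.11, 7.93 and 9.95 in serum P7 cultures, against 4.65, 5.91 and 4.69 in MD cultures (change 3.58, SE 0.54, adjusted p = 0.000121). Rig1, the symbol in the reference table for the gene of an RNA sensor also called Ddx58, was at 10.21, 9.92 and 9.93 in serum P7 cultures, against 6.71, 7.83 and 7.18 in MD cultures (change 2.78, SE 0.27). Irf7 (2.13), Ifi44 (2.03), Isg15 (1.98, adjusted p = 0.0142) and Rsad2 (1.93) followed, and for each of them the serum P7 arrays lay above the MD arrays. The call of Isg15 was lost without serum P7 replicate 1 (1.58, adjusted p = 0.0717). With a single array left out, between 9 and 12 members were called higher. The withdrawn P7 cultures had the highest list mean of the 7 groups, at 9.12 to 9.81. HBEGF P7 cultures were at 8.61, 7.63 and 8.72, against 7.75, 7.44 and 7.83 in HBEGF P1 cultures. Fresh P7 cells were at 7.52 to 7.87 and fresh P1 cells at 7.15 to 7.26. The list's median change was 0.53 in HBEGF P7 minus HBEGF P1 cultures and 0.41 in fresh P7 minus fresh P1 cells.

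The interferon-stimulated response element, or ISRE, is the promoter sequence that interferon-activated factors bind, and its core was searched as GAAA, 2 bases of any kind and GAAA again, on both strands in the same promoters. Of the 13 genes called higher, 9 had a promoter in the table and 7 of these (77.8%) held the core. Of 14 other measured members with a promoter, 7 (50%) held it, against 3.77% of all 27457 promoters. The 3 called genes with the largest change that hold it are shown because they rose together, with the matches in capitals. On the strand printed they read as the reverse complement, TTTC, 2 bases and TTTC.
Irf7 promoter (chr1:205799974-205800273, minus strand, GRCr8): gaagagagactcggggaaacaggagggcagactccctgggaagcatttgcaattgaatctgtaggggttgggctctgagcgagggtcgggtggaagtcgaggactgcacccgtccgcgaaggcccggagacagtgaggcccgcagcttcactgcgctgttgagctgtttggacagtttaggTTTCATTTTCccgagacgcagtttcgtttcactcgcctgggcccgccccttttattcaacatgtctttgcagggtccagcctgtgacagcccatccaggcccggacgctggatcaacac
Ifi44 promoter (chr2:243303791-243304090, minus strand, GRCr8): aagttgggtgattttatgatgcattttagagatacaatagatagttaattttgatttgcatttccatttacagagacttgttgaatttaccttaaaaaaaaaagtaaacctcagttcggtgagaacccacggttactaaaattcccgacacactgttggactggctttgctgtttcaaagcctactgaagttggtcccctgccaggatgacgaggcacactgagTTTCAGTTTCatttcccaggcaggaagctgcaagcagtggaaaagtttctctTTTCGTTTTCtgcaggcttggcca
Rsad2 promoter (chr6:48788071-48788370, minus strand, GRCr8): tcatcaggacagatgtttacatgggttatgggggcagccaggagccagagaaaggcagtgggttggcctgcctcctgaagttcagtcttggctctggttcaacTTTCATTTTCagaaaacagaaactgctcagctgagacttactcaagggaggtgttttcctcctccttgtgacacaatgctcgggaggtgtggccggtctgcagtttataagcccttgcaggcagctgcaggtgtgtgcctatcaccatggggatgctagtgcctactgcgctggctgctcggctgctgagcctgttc

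Sterol synthesis genes that were called were all higher in serum P7 cultures. Of 19 measured, 7 (36.8%) were called higher and none lower, and the median change was 0.92. Insig1, the membrane anchor that holds back sterol regulators, was at 11.84, 11.86 and 11.86 in serum P7 cultures, against 9.49, 9.64 and 9.41 in MD cultures (change 2.34, SE 0.23, adjusted p = 1.96e-06). Lss, which closes the sterol ring, was at 11.61, 11.61 and 11.36 in serum P7 cultures, against 9.03, 9.18 and 9.43 in MD cultures (change 2.31, SE 0.20). Both genes were higher still in the fresh cells, where Insig1 averaged 13.57 at P7 and 13.19 at P1. Dhcr7, which catalyses the last step to cholesterol, changed by 1.54.

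Signals of the TGF-beta and BMP families split. Of 23 measured, 6 (26.1%) were called higher and 4 (17.4%) lower, with a median of -0.04. The ligands Bmp4 (3.53), Bmp6 (3.38) and Bmp7 (2.40) and the matrix protein Tgfbi (3.70) were higher in serum P7 cultures. Pmepa1 (-2.38) and Smad7 (-1.02), feedback inhibitors of TGF-beta signalling, Ltbp1 (-2.35), which stores the ligand in the matrix, and Fst (-2.18), an activin antagonist, were lower. The call of Bmp7 was lost when the 6 arrays compared were fitted alone (adjusted p = 0.057). With 1 array left out, between 2 and 6 members were called lower.

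Defining markers of other brain cells were set against 7.06, the median of all values of the 6 arrays, below which 27.4% of all genes lay in every array. Of 21 microglia and macrophage markers, 14 lay below it in every one of the 6 arrays, including Aif1, Cx3cr1, Csf1r and P2ry12, and Cd14 was the 1 called gene (1.23). Its call was lost without serum P7 replicate 1 (1.08), serum P7 replicate 2 (1.07) or MD replicate 1 (0.88). The microglial list mean was 6.09, 5.87 and 6.41 in serum P7 cultures, against 5.89, 5.96 and 5.83 in MD cultures. Of 14 endothelial markers, 7 were dim in this sense, Cldn5, Pecam1 and Tek among them, while Kdr (3.01) and Ocln (2.20) were called higher, and the list mean was 6.45, 6.47 and 7.05 in serum P7 cultures, against 6.18, 6.21 and 5.94 in MD cultures. Cspg4, Sox10 and Olig2 of the oligodendrocyte progenitor list were dim as well, but Pdgfra, a receptor that progenitors share with fibroblasts, was at 10.99, 11.72 and 13.73 in serum P7 cultures, against 8.04, 7.41 and 7.79 in MD cultures (change 4.40, SE 0.68, adjusted p = 0.000132). Of 13 mural markers only Pdgfrb (2.90) and Anpep (2.22), also known from fibroblasts, were called, and of the 23 fibroblast and meningeal genes only Twist2 was dim. What part the fibroblast and meningeal genes have in the other changes was not tested.

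**Figure D4:**
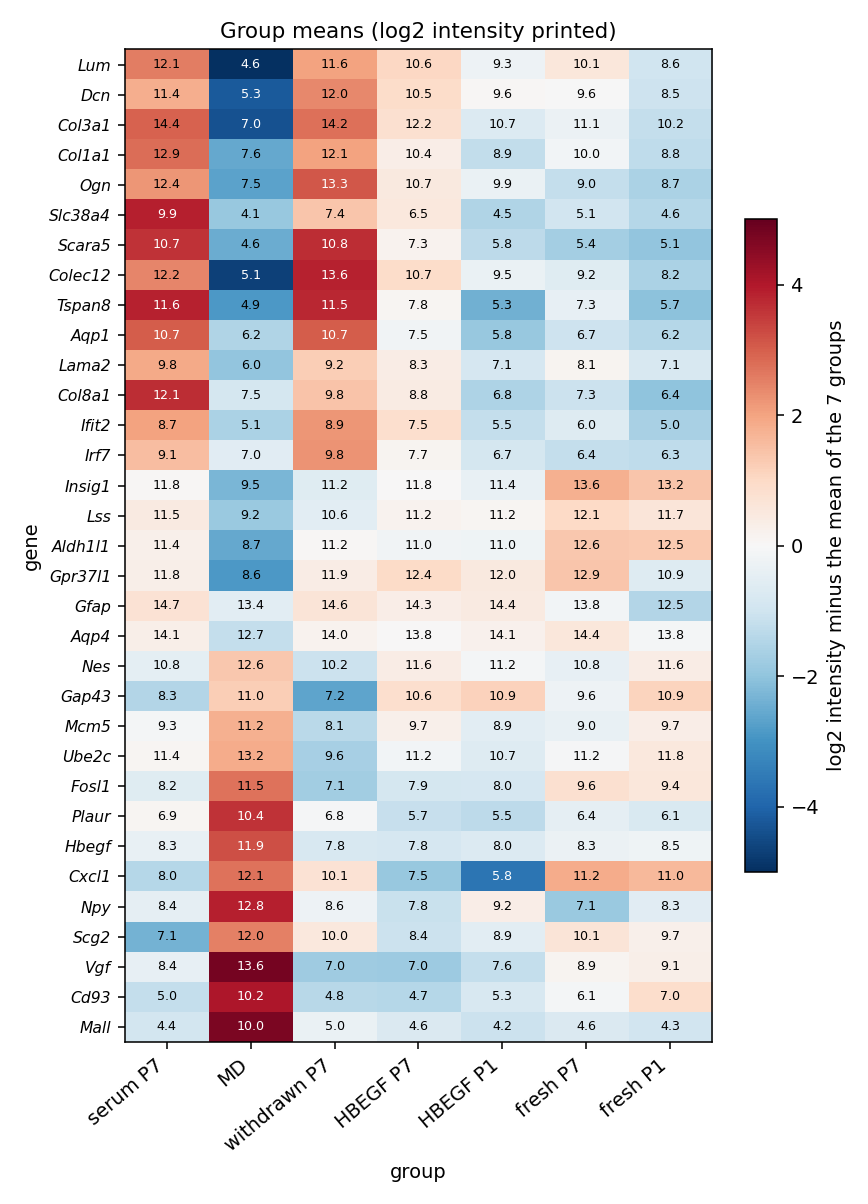
Mean log2 intensity (printed) of 33 genes named in the text, chosen after their values were seen, in the 7 groups, with colour for the difference from the mean of the 7 groups. The serum P7 and MD columns stand at the left, and Mall is at 4.4 in serum P7 cultures and 10.0 in MD cultures.

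Whether the gap between the preparations resembles the P7 to P1 gap of panned cells can be asked, because panned cells of both ages were also measured in HBEGF medium and fresh, on arrays that share none with the 6 compared here. Fewer genes were called between start days of panned cells. In HBEGF P7 minus HBEGF P1 cultures 107 genes were called higher (0.753%) and 51 lower (0.359%), and in fresh P7 minus fresh P1 cells 195 were higher (1.37%) and 26 lower (0.183%). Of the 1077 genes higher in serum P7 than in MD cultures, 60 were also called higher in HBEGF P7 than in HBEGF P1 cultures and 61 in fresh P7 than in fresh P1 cells. Of the 906 lower genes, 8 and 6 were called lower there. In the opposite direction, 3 of the 1077 genes were called lower in HBEGF P7 than in HBEGF P1 cultures and 1 in fresh P7 than in fresh P1 cells, and 2 and 7 of the 906 were called higher there. Across the 14217 genes, which are not independent replicates, the change between the preparations correlated with that of the HBEGF cultures at r = 0.254 and with that of the fresh cells at r = 0.314. Serum is absent from both of those comparisons.

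**Figure D5:**
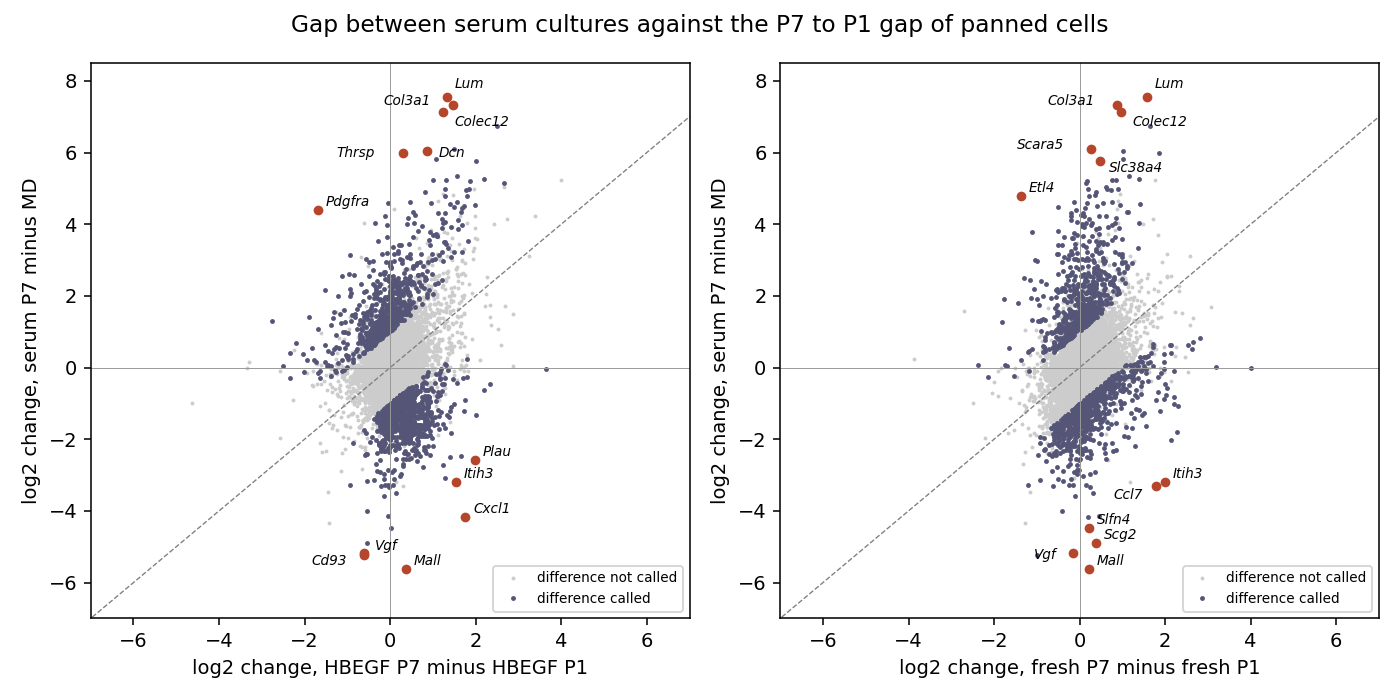
Log2 change of serum P7 minus MD cultures (vertical axes) against HBEGF P7 minus HBEGF P1 cultures (left) and fresh P7 minus fresh P1 cells (right), 1 point a gene, with the dashed line where both are equal. Dark points were called for the difference of the changes, and the named red points are the largest called differences. Lum changed by 7.54 between the preparations, by 1.32 in the HBEGF cultures and by 1.58 in the fresh cells.

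The difference of the changes was tested in the same model. Against the HBEGF cultures 713 genes (5.02%) had a more positive change between the preparations and 894 (6.29%) a more negative one, and against the fresh cells 604 (4.25%) and 736 (5.18%). Lum exceeded the P7 to P1 change by 6.22 in HBEGF cultures (SE 0.69, adjusted p = 4.68e-05) and by 5.96 in fresh cells (SE 0.69, adjusted p = 6.63e-05). Of the 23 fibroblast and meningeal genes, 9 had a called positive difference from the HBEGF cultures and 10 from the fresh cells. The mean of this list was uneven in HBEGF P7 cultures, at 9.86, 8.10 and 10.08, against 8.52, 8.29 and 8.58 in HBEGF P1 cultures. Mall had differences of -5.98 from the HBEGF cultures (adjusted p = 2.86e-09) and -5.84 from the fresh cells (adjusted p = 4.22e-09), with an SE of 0.29 for each. Of the 43 cell cycle genes, 33 had a called negative difference from the HBEGF cultures and 2 from the fresh cells. Of all genes, 6.29% and 5.18% had such a difference, and the 2 genes were near that share. The median change of the 43 was 0.64 in HBEGF P7 minus HBEGF P1 cultures and -0.39 in fresh P7 minus fresh P1 cells. Their list mean was uneven in HBEGF P7 cultures, at 9.33, 10.90 and 10.41, against 9.35, 9.57 and 9.98 in HBEGF P1 cultures. For neither list were the results without single HBEGF arrays tested. Aldh1l1 changed by 2.79 between the preparations and by 0.01 and 0.06 in the HBEGF cultures and the fresh cells, and both differences were called (2.78 and 2.73). Gfap changed by 1.26 between the preparations and by 1.34 in the fresh cells (difference -0.07, SE 0.40, adjusted p = 0.946), and by -0.11 in the HBEGF cultures (difference 1.37, SE 0.40, adjusted p = 0.0316).

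The calls were also placed among all 7 group means, though they already used the MD and serum P7 values, so the counts are a description. Of the 1077 higher genes, the serum P7 mean was the highest of the 7 groups in 285 (26.5%, against 10.1% of all genes) and the MD mean the lowest in 661 (61.4%, against 17.3%). Of the 906 lower genes, the serum P7 mean was the lowest in 136 (15%, against 9.83%) and the MD mean the highest in 762 (84.1%, against 29.5%).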

How the data were processed

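Total RNA was measured on Affymetrix rat expression arrays after a 3' IVT labelling kit, per the labels' protocols. The deposited values are intensities on a linear scale, made by the authors with RMA, per the submitters' processing notes, whose software version and chip definition the sources used here do not name. The lowest intensity was 10 and the highest 37801, and array medians lay between 128 and 146.

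The log2 of each deposited intensity was taken, with no further normalization and no filter. Of 31042 probe sets, 20826 carried 1 gene symbol, 436 several and 9780 none. Each of the 14217 genes was represented by its brightest probe set (highest average across the arrays), and for 7 called genes another probe set passed in the opposite direction. Groups followed the titles. limma 3.58.1 in R 4.3.3 (lmFit, contrasts.fit, eBayes) was fitted to all 21 arrays with 7 group means (14 residual and 2.89 prior degrees of freedom) and no covariate, and was tested on simulated data. The median SE was 0.17. Differences of changes were contrasts in the same fit. The labels call the replicates biological. They give no batch or array date, and no batch was tested. Same-numbered serum P7 and MD arrays had deviations from their group means that correlated at -0.1, -0.065 and -0.12. Differently numbered arrays gave -0.019 to 0.11. The numbers thus showed no sign of pairing, though with 3 arrays a group such a check cannot exclude it.

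The genes named were the 15 largest rises and 15 largest falls among called genes without overlap, up to 5 called members a list, 12 preset genes, and 6 genes a direction in each difference of changes. Further list members were named after their values were seen. The comparison, its members and the 30 gene lists, which share some genes, were chosen with earlier results of these data known. Of 658 listed symbols 600 were measured. Promoters, 1 per symbol, came from RefSeq (GRCr8), and 468 of the 600 listed genes had one. The alternatives were other array sets, normalizations, filters, offsets, priors and probe set choices, a replicate block and no fold limit. Each of the 6 serum P7 and MD arrays was also left out, 1 at a time.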

Additional observations from a re-analysis of the deposited data

Results flagged for a closer look

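Several genes differed in their serum P7 minus MD change from the P7 minus P1 change of panned cells, by limma's test of the difference itself. The values are log2 differences of changes, and no explanation was tested.

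Against the HBEGF cultures, which are panned cells kept without serum, the largest positive differences were 6.22 for Lum, 6.09 for Pdgfra, 5.90 for Colec12, 5.85 for Col3a1, 5.67 for Thrsp and 5.17 for Dcn. Pdgfra, the receptor for platelet-derived growth factor, changed by 4.40 between the preparations and by -1.69 in HBEGF P7 minus HBEGF P1 cultures, where its means were 11.54 and 13.23. The largest negative differences were -5.98 for Mall, -5.92 for Cxcl1, -4.74 for Itih3, -4.63 for Cd93, -4.58 for Plau and -4.56 for Vgf. Plau, the urokinase protease, was at 9.81, 10.12 and 6.54 in serum P7 cultures, against 11.77, 11.03 and 11.44 in MD cultures, and its difference missed the threshold when only the arrays compared were fitted (adjusted p = 0.0627). Its own change of -2.59 (adjusted p = 0.0216) was lost without serum P7 replicate 3 (-1.45), MD replicate 1 (-2.41) or MD replicate 3 (-2.58).

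Against the fresh cells the largest positive differences were 6.44 for Col3a1, 6.17 for Colec12, 6.16 for Etl4, 5.96 for Lum, 5.83 for Scara5 and 5.31 for Slc38a4. The largest negative ones were -5.84 for Mall, -5.27 for Scg2, -5.18 for Itih3, -5.09 for Ccl7, -5.02 for Vgf and -4.69 for Slfn4. Itih3, a heavy chain of an inhibitor that binds hyaluronan, was at 6.25, 6.15 and 6.21 in serum P7 cultures, against 11.74, 8.16 and 8.29 in MD cultures, with a mean of 14.10 in fresh P7 cells and 12.11 in fresh P1 cells. MD replicate 1 was far above the other MD arrays for Itih3. The difference for Ccl7 was not called without serum P7 replicate 3 (-4.13, adjusted p = 0.0586) or without MD replicate 1 (-4.49, adjusted p = 0.0621).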

How the results depend on the processing

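The counts of 1077 higher and 906 lower genes became 2208 and 2638 with no fold limit. In the same setting the differences from the HBEGF cultures gave 1117 higher and 1489 lower genes. Those from the fresh cells gave 830 higher and 1288 lower. Leaving out 1 of the 6 serum P7 and MD arrays at a time gave 970 to 1126 higher and 805 to 1036 lower genes for serum P7 minus MD. It gave 595 to 758 and 772 to 1020 for the difference from the HBEGF cultures. For the difference from the fresh cells it gave 493 to 652 and 595 to 818. No HBEGF or fresh array was left out, so how these differences depend on single arrays of those groups was not tested. The remaining alternatives gave 851 to 1128 higher and 757 to 1050 lower genes for serum P7 minus MD. They gave 555 to 784 and 704 to 1010 for the difference from the HBEGF cultures. For the difference from the fresh cells they gave 492 to 832 and 588 to 934. The shared replicate numbers showed no sign of pairing. With them as a replicate block 1096 genes were higher and 918 lower, with Elavl4 the 1 named gene that lost its call. Centring arrays on their medians moved the median change of all genes to -0.135, with 48.1% of calls higher against 54.3% without centring.

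Of 2287 values of 143 named genes under the alternatives, 74 (of 30 genes) lost their call, 3 gained one and 5 changed sign. The sign changes were those of S100b, at -0.04 with centring and between -0.09 and 0.25 with 1 array left out (-0.07 without serum P7 replicate 1, -0.09 without serum P7 replicate 2, -0.03 without MD replicate 3), and of Itgb5, at -0.28 with the most variable probe set. Neither gene was called. Aqp4 (1.14), Sox4 (0.39), Srf (-0.20) and Cldn11 (2.40) lost their calls with the most variable probe set, and the cause was not tested. Probes near the floor limit low levels, and 20233 probe sets remained when dim ones were left out.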

Other observations

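Growth factor and imprinted genes were among the further changes between serum P7 and MD cultures. Of 13 imprinted and fetal genes, 4 (30.8%) were called higher and 1 (7.69%) lower in serum P7 cultures, against 7.58% and 6.37% of all genes. Grb10, an adaptor that restrains insulin and IGF receptors, was at 11.18, 11.93 and 12.75 in serum P7 cultures, against 6.51, 7.82 and 6.56 in MD cultures (change 4.99, SE 0.53, adjusted p = 4.06e-06). Its means in the other 5 groups ran from 7.46 to 11.68, so the serum P7 cultures were the highest. Plagl1, a zinc finger factor, changed by 3.43, and H19, an imprinted noncoding RNA, by 2.56. Of 15 insulin-like growth factor genes, 4 (26.7%) were called higher, among them Igfbp6 (2.79), and 2 to 4 with 1 array left out.

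Of 24 glutathione and antioxidant genes, 8 (33.3%) were called higher and none lower, against 7.58% and 6.37% of all genes. Gstm2, a glutathione transferase, was at 11.89, 11.99 and 11.63 in serum P7 cultures, against 8.47, 7.73 and 7.97 in MD cultures (change 3.78, SE 0.50). The withdrawn P7 cultures, at a mean of 12.37, were the only other group above 9. Gene copies of this family can share probes, so its members are not told apart with certainty. Of 21 glycolysis and lactate genes, 5 (23.8%) were called higher and none lower. The largest change was 1.43 for Pdk1, a kinase that holds back pyruvate oxidation.

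Most of the lists that follow held few called genes, and several of their shares were close to the 7.58% higher and 6.37% lower of all genes. Of 26 actin and SRF target genes, 3 (11.5%) were called higher and 3 (11.5%) lower. Actg2, a smooth muscle actin, was at 8.82, 8.93 and 7.90 in serum P7 cultures, against 5.27, 5.46 and 5.40 in MD cultures, and its means in the other 5 groups ran from 4.80 to 5.57. Tpm2, a tropomyosin at 12.86, 12.96 and 12.79 in serum P7 cultures, against 11.70, 11.01 and 11.41 in MD cultures, has another probe set that passed in the opposite direction. Of 24 forebrain regional factors, 3 (12.5%) were called higher: Zic4 (2.41), Zic1 (2.13) and Nr2f2 (1.82). Of 14 ependymal and choroid plexus genes, only the water channel gene Aqp1 (4.51) and Msx1 (1.60) were called higher (14.3%). Msx1 lost its call without serum P7 replicate 3 (1.22). Of 13 oligodendrocyte genes, 4 (30.8%) were called higher and 2 (15.4%) lower. Cldn11 (4.63), Enpp2 (3.14) and Myrf (1.33) were among the higher genes, and Mbp (-2.82) and Mal (-1.24) were the lower ones. The call of Enpp2 was lost when the 6 arrays compared were fitted alone (adjusted p = 0.0743). Mog, Mag and Mobp lay below the median of all values in each of the 6 arrays. Of 16 phagocytosis genes, 3 (18.8%) were higher, Pros1 (2.13) among them, and 1 (6.25%) lower, Axl (-1.54). Of 14 secreted synapse factors, 1 was called in each direction (7.14%, near the shares of all genes): Thbs2 (2.35) was higher and Nlgn1 (-1.44) lower, a call that was lost without serum P7 replicate 3 (-0.68) or any 1 MD array (-1.55 to -1.34). None of 3 sex-linked genes (Xist, Eif2s3y and Uty) was called by limma, though their changes ran from -3.48 to 0.96. Their list mean, which mixes genes that moved in opposite directions, was 7.98, 8.30 and 8.24 in serum P7 cultures. It was 9.18, 9.57 and 9.28 in MD cultures. The HBEGF P7 cultures were at 8.01 to 8.40 and the withdrawn P7 cultures at 7.97 to 8.16. The HBEGF P1 cultures were at 10.08 to 10.60, fresh P1 cells at 9.86 to 10.89 and fresh P7 cells at 8.27 to 10.42. A difference in the sex of the animals was not tested. In the alternatives, 1 was called higher without serum P7 replicate 3 or with no fold limit. Settings other than leaving out an array or the fold limit called up to 1 higher and up to 1 lower.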
